A study of Mus musculus with 12 samples.

Results

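Among CD8 T cells of MMTV-PyMT breast tumors, 368 cells carried transcripts of both *Pdcd1* and *Havcr2*, which encode the inhibitory receptors PD-1 and TIM-3, and no transcript of *Cd4*, *Tcf7* or *Mki67*. They were 2.54% of the 14466 cells with a *Cd8a* transcript (95% Clopper-Pearson interval 2.29 to 2.81) and 1.88% of all 19528 cells kept. The cells were chosen by raw counts of unique molecular identifiers (UMIs, 1 per captured transcript): at least 1 of *Cd8a*, *Pdcd1* and *Havcr2*, and 0 of *Cd4*, *Tcf7* and *Mki67*. These 6 genes defined the cells, so their levels are a description and support nothing. The cells are called *Pdcd1* *Havcr2* CD8 cells below.

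The cells came from tumors of female PyMT-PAR2 WT and PyMT-PAR2 G37I mice, in 3 samples per genotype that the study's methods describe as independent biological replicates. All carried the PyMT oncogene driven by the mouse mammary tumor virus promoter, which makes mammary tumors arise spontaneously. PAR2 G37I is a mutated protease-activated receptor 2 that coagulation factor Xa does not activate, and PAR2 WT is the signaling-competent form. CD4 and CD8 T cells were selected with beads from suspensions of mid-size tumors, frozen in serum with dimethyl sulfoxide, thawed and sequenced on the 10x Genomics platform. The mice had no treatment, and the labels give no age. The matrix pools all 6 samples and its 23101 barcodes carry no sample name, so it was treated as 1 sample. Genotypes were therefore not compared, and no p-value is given.

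T cell exhaustion is the state that CD8 T cells enter when antigen persists, as in tumors and chronic infection. It is marked by several inhibitory receptors on the same cell, by the transcription factor TOX and by reduced cytokine output. A progenitor state that keeps TCF1, the product of *Tcf7*, renews the pool, and a terminal state that has lost TCF1 and gained TIM-3 keeps killing functions but does not renew it. CCL5, a chemokine that effector T cells store and secrete, is high in the later states.

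In order of the alphabet the barcodes form 6 stretches, called barcode runs here, none of which was linked to a sample. Total UMIs of the kept cells ranged from 13272316 to 29805886 per run. A mitochondrial share of at least 10% removed 3278 cells and fewer than 200 detected genes removed 295, and runs 4 and 5 lost most: 2046 of 3554 and 1854 of 3468 barcodes were kept. The barcode list held 51 barcodes more than once, and 0 of the 368 cells had one of them. The *Pdcd1* *Havcr2* CD8 cells numbered 80, 72, 87, 50, 41 and 38 in runs 1 to 6. As a share of the *Cd8a* cells of each run they were 2.45%, 3.61%, 3.60%, 3.33%, 2.75% and 1.00%. Run 6 had the lowest share, and its interval of 0.710 to 1.37% lay below those of the other 5 runs, the lowest of which began at 1.94%.

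The road from all *Cd8a* cells to these 368 shows what the definition selected. *Pdcd1* was found in 7354 *Cd8a* cells, or 50.8%, and *Havcr2* in 759, or 5.25%. Both were found in 585 cells, which is 7.95% of the *Pdcd1* cells and 77.1% of the *Havcr2* cells. Of these, 37 also had a *Cd4* UMI, 91 a *Tcf7* UMI and 130 an *Mki67* UMI, and 368 had none. *Havcr2* was thinly sampled: 306 of the 368 cells, 83.2%, held 1 *Havcr2* UMI, 42 held 2, and the highest held 6. *Pdcd1* reached 3 or more UMIs in 196 cells, 53.3%, and a maximum of 13.

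*Havcr2* is also a gene of macrophages, which were present in the preparation. In 578 cells with UMIs of *C1qa*, *C1qb* and *C1qc*, the subunits of complement C1q that mark macrophages, and none of *Cd3d*, *Cd3e*, *Cd3g*, *Cd8a* or *Cd4*, *Havcr2* was detected in 51.9% at a median of 15704 UMIs per cell. *Cd8a* cells with *Ccr7* and *Lef1*, genes of naive T cells that should lack *Havcr2*, had it in 1.70% of 943 cells (interval 0.973 to 2.74) at a median of 8977 UMIs. *Cd8a* cells with *Pdcd1* had it in 7.95% (7.35 to 8.6) at a median of 4695.5 UMIs, and those without *Pdcd1* in 2.45% (2.10 to 2.83) at 5166. Detection of *Havcr2* in *Pdcd1* cells was above that in the *Ccr7* *Lef1* cells at a lower depth. The interval for *Cd8a* cells without *Pdcd1* overlapped that of the *Ccr7* *Lef1* cells. *Pdcd1* was itself detected in 17.8% of the *Ccr7* *Lef1* cells, so they share cells with the *Pdcd1* set and are no clean negative. Both genes belong to the definition, so these shares are a description only. After every cell was thinned at random to 2000 UMIs, the shares were 3.31% (2.91 to 3.75) with *Pdcd1*, 0.945% without, 0.424% in the *Ccr7* *Lef1* cells (0.116 to 1.08) and 15.7% in the C1q cells. Intervals here and throughout cover counting error only.

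The T cell identity of the *Pdcd1* *Havcr2* CD8 cells was checked on genes outside the definition. A UMI of *Cd3d*, *Cd3e* or *Cd3g*, chains of the T cell receptor complex, was found in 367 of the 368 cells, and the cell without one held macrophage UMIs. *Cd8b1*, the second chain of CD8, stood at 865 CPM (the gene's UMIs per 1000000 UMIs of all cells in the set), and *Trac* and *Trbc2*, the constant regions of the T cell receptor, at 759 and 2431 CPM. Of the defining genes of natural killer cells, *Ncr1* had 0 UMIs, where a count of 0 allows up to about 3 by a 1-sided 95% limit. *Klrb1c* had 1. The B cell genes *Cd79a*, *Cd79b* and *Ms4a1* had 1 UMI each, and *Foxp3*, which defines regulatory T cells, stood at 5.54 CPM, with all 12 UMIs in 1 cell of run 4.

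For comparison, each of the 368 cells was paired with 1 *Cd8a* cell of the same run that had no *Pdcd1* and no *Havcr2* UMI and the nearest UMI total, out of 6938 such cells. The median UMI total was 4786.5 in the *Pdcd1* *Havcr2* CD8 cells and 4787.5 in the matched cells. The former had more detected genes, a median of 1775.5 against 1646.5, and a lower mitochondrial share, 3.23% against 4.43%. A gene was called when its ratio of pooled CPM, with 1 UMI added to each sum, was at least 1.5 and its direction was the same in all 6 runs. Of 4818 genes with at least 100 UMIs over both sets, 312 were called higher (6.48%) and 90 lower (1.87%), and the median gene differed by 0.17 on the log2 scale. The matched cells were not filtered on the other genes of the definition: 35.6% had a *Tcf7* UMI and 9.78% an *Mki67* UMI. Against matched cells that also lacked *Cd4*, *Tcf7* and *Mki67*, called the strict comparison, 280 genes were higher (5.86%) and 63 lower (1.32%), of which 183 and 42 were among the first calls.

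*Ccl5* was higher in every run. Its level in the *Pdcd1* *Havcr2* CD8 cells was 16692, 11169, 9482, 23769, 9359 and 10895 CPM in runs 1 to 6, and in the matched cells 7603, 4909, 5938, 8435, 3532 and 5544 CPM. The lowest run of the former lay above the highest run of the latter. Pooled, *Ccl5* stood at 13298 against 6018 CPM, a ratio of 2.21 (95% counting interval 2.16 to 2.26), with 1.97 in the strict comparison. It was found in 365 of the 368 cells with a median of 59 UMIs per cell, and the 10 cells with most held 11.0% of its UMIs. The ratio moved with the threshold on the receptors, to 3.68 among the 52 cells with at least 2 UMIs of each, and was 1.88 with a mitochondrial limit of 5%.

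**Figure D1:**
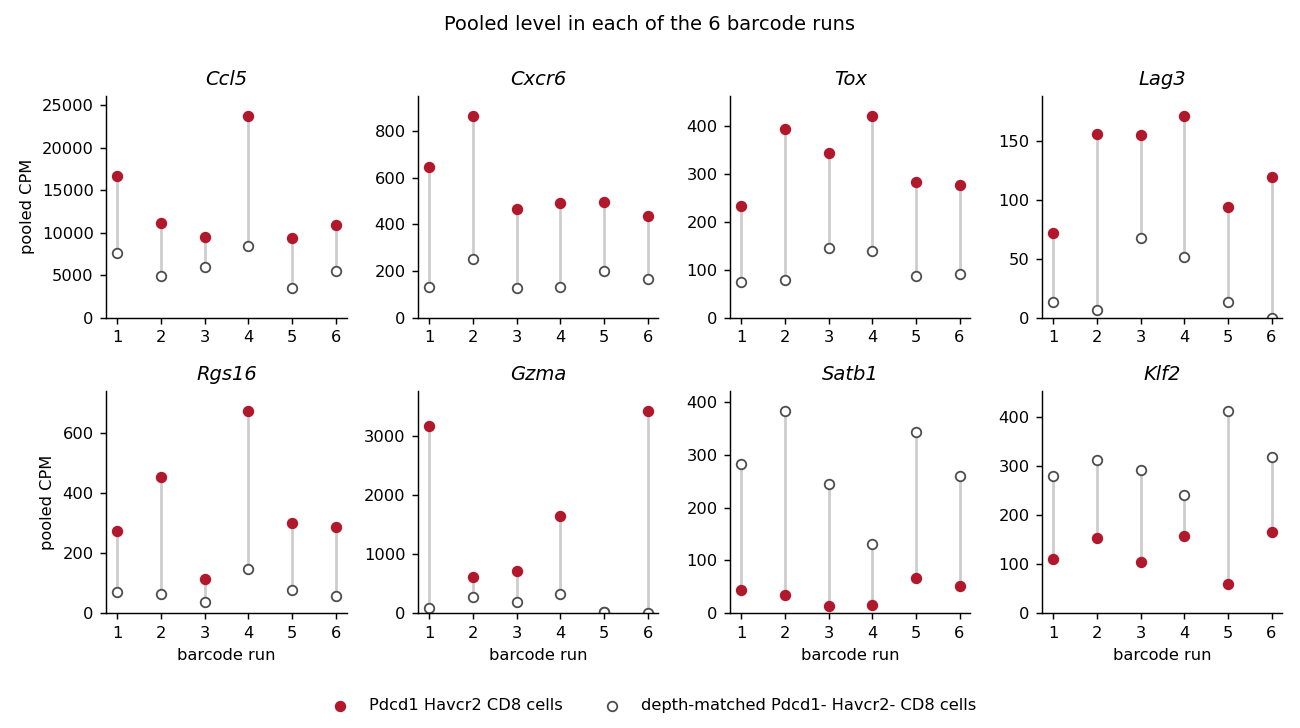
Pooled CPM (vertical axes) of 8 genes in the *Pdcd1* *Havcr2* CD8 cells (filled points) and in their depth-matched *Cd8a* cells without *Pdcd1* and *Havcr2* (open points) in each of the 6 barcode runs (horizontal axes). *Ccl5*, *Cxcr6*, *Tox* and *Lag3* are higher and *Satb1* and *Klf2* lower with no overlap between the sets, while *Gzma* is high in runs 1, 4 and 6 and near 0 in both sets in run 5.

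Other inhibitory receptors were found with the 2 used for selection. Of 18 listed, 9 reached 100 UMIs, and 4 of these were called higher and 0 lower, beside 6.48% and 1.87% of all genes, with a median log2 ratio of 0.74 against 0.17 for all genes. The same shares over all genes are the background of the list counts that follow. *Lag3*, whose product binds MHC class II and restrains T cell activation, stood at 128 against 27.3 CPM, a ratio of 4.63 (3.53 to 6.33). Its runs spanned 71.6 to 171 CPM with a median of 137, and the matched cells 0 to 67.1 with a median of 13.2, so the sets did not overlap. *Ctla4*, which competes with CD28 for its ligands, stood at 225 against 76.7 CPM, a ratio of 2.93 (2.46 to 3.53). Its runs overlapped, at 120 to 280 against 30.1 to 149 CPM. *Vsir*, which encodes VISTA, and *Entpd1*, which encodes the ATP-degrading ectoenzyme CD39, had ratios of 1.85 and 1.67, and *Entpd1* stood at 36.7 CPM in both sets in run 5. The 4 genes were also called in the strict comparison, with ratios of 3.38 for *Lag3*, 3.01 for *Ctla4*, 1.61 for *Vsir* and 1.95 for *Entpd1*.

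Several other receptors of the list did not meet the rule. *Cd38*, a NAD-degrading ectoenzyme, had a ratio of 1.97 with 5 of 6 runs higher. *Cd160* stood at 41.6 against 45.3 CPM, a ratio of 0.919 (0.682 to 1.23), and *Cd96* and *Cd5* had ratios of 1.09 and 1.01. *Tigit*, *Cd244*, *Cd101* and *Klrg1* were too thin to be tested, at 8.32, 18.5, 20.3 and 12.9 CPM in the *Pdcd1* *Havcr2* CD8 cells and 6.01, 16.2, 13.4 and 4.16 CPM in the matched cells. *Cd200r1*, of the CD200 receptor family, stood at 31.9 against 5.08 CPM without reaching 100 UMIs. *Cd200r4*, of the same family, is not on the list and was called higher, 5.50-fold (50.4 against 8.78 CPM). In cells thinned to 2000 UMIs, 24.1% of the *Pdcd1* *Havcr2* CD8 cells had UMIs of 3 or more of the 18 receptors, against 7.19% of all 6708 comparison cells that were deep enough, and 18.9% against 38.5% had none. Cells with *Pdcd1* but no *Havcr2*, otherwise chosen alike, had 3 or more in 16% and none in 23.9%. C1q cells without Cd3 had 3 or more in 9.92% and none in 27.3%. Their mean of 1.20 receptors per cell was above the 0.951 of comparison cells, so they give no background for this list.

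Transcription factors tied to exhaustion were called higher in 6 of the 15 that were tested, beside 6.48% of all genes, and lower in 0, with a median log2 ratio of 0.72. *Tox*, which installs the exhausted chromatin state, stood at 329 against 102 CPM, a ratio of 3.22 (2.77 to 3.78). Its runs reached from 234 to 422 CPM against 73.9 to 145 CPM and did not overlap. *Batf*, a factor downstream of the T cell receptor, followed at 69.8 against 24 CPM (2.87), and *Ikzf2*, which encodes Helios, at 325 against 129 CPM (2.53). *Bhlhe40*, *Id2* and *Nr4a2* were 1.79, 1.68 and 1.65 times as high. *Maf* had the largest ratio, 6.29 (139 against 21.7 CPM), but missed the rule because run 3 stood at 31.4 CPM in both sets. *Eomes* and *Tbx21*, T-box factors that are often set against each other in exhausted subsets, had ratios of 0.844 (0.708 to 1.00) and 1.08 (0.830 to 1.40), and the early activation factor *Nr4a1* 0.756.

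Of 15 genes of the progenitor and naive states that were tested, 8 were called lower, 0 higher and 7 neither, with a median log2 ratio of -1.53, where 1.87% of all genes were called lower. *Satb1*, a chromatin organizer of early T cells, stood at 34.7 against 284 CPM, 8.10-fold lower, with runs of 12.6 to 66.8 against 131 to 383 CPM. *Ccr7*, the receptor that leads T cells into lymph nodes, stood at 7.39 against 121 CPM, 15.5-fold lower. *S1pr1*, the receptor for exit from tissue, and *Klf2*, the factor that drives it, were 4.64- and 2.50-fold lower, and *Klf2* stood at 122 against 305 CPM. *Il7r*, the receptor for the survival cytokine IL-7, was 2.88-fold lower, *Ly6c2* 3.28-fold and *Myb* 5.47-fold. Since *Tcf7* was part of the definition, this list is not independent of it: in the strict comparison 5 of 12 were called lower (*Ccr7*, *Satb1*, *S1pr1*, *Ly6c2* and *Klf2*), with a median of -1.13. *Cd27* and *Cd28*, costimulatory receptors that naive cells carry, and the survival gene *Bcl2* had ratios of 1.1, 1.04 and 0.943.

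**Figure D2:**
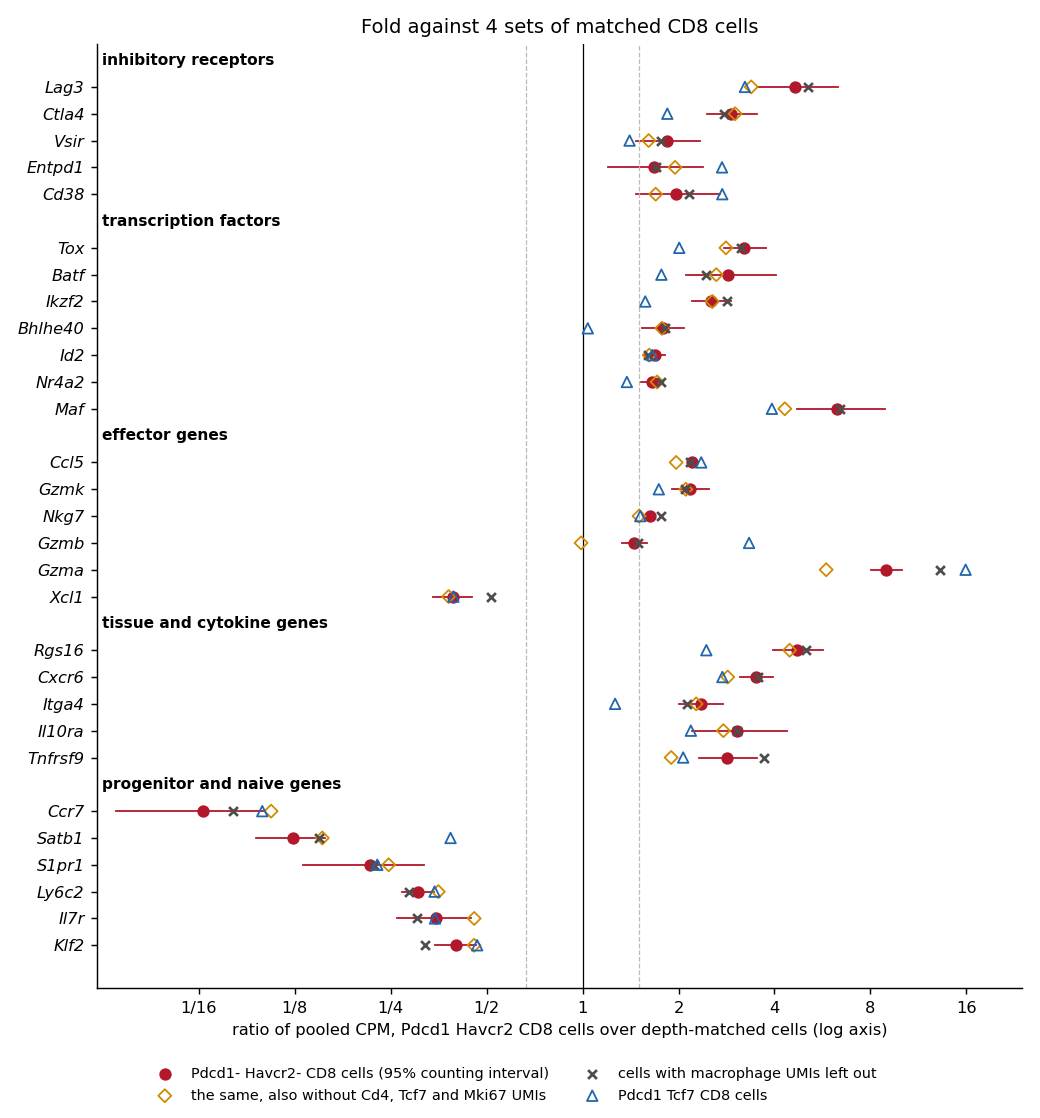
Ratio of pooled CPM (horizontal log axis) for genes in 5 groups, *Pdcd1* *Havcr2* CD8 cells over 4 sets of depth-matched cells, with the 95% counting interval drawn for the first set and dashed lines at a ratio of 1.5 in either direction. *Lag3*, *Tox*, *Rgs16* and *Cxcr6* lie right of the dashed line against every set, and *Gzmb* lies at 0.989 in the strict comparison and at 3.33 against *Pdcd1* *Tcf7* cells.

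Among genes of cytotoxic granules and killing, 2 of 13 tested were called higher. *Gzmk*, a granzyme of early effector and exhausted cells, stood at 338 against 155 CPM, a ratio of 2.18 (1.91 to 2.49), and *Nkg7*, a granule membrane protein, at 2976 against 1832 CPM, a ratio of 1.62. Perforin, *Prf1*, stood at 63.8 against 40.2 CPM with 5 of 6 runs higher. *Gzmb*, the main granzyme of killer cells, stood at 614, 307, 607, 714, 628 and 561 CPM in runs 1 to 6, against 128, 322, 407, 455, 751 and 396 CPM. It was lower in runs 2 and 5, its pooled ratio was 1.45 (1.33 to 1.59), and in the strict comparison the ratio was 0.989.

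*Gzma*, a granzyme that cleaves its own set of substrates, was unevenly spread. It stood at 3174, 610, 720, 1646, 13.4 and 3422 CPM in runs 1 to 6, against 86.9, 267, 193, 317, 16.7 and 5.66 CPM in the matched cells. Run 5 was near the bottom in both sets, so the gene was not called although its pooled ratio was 8.94. It was detected in 75 of the 368 cells, 20.4%, and 10 of them held 50.1% of its 3156 UMIs. *Ccl3* and *Ccl4*, chemokines that activated T cells and macrophages release, were held by still fewer cells: the 10 cells with most held 85.6% and 75.3% of their UMIs, and 3 of those 10 in either case had a macrophage UMI. *Ccl4* stood at 524 against 271 CPM with 4 of 6 runs higher. *Xcl1*, which attracts cross-presenting dendritic cells, was the chemokine called lower, at 130 against 332 CPM (2.55-fold), but not in the strict comparison, where its ratio was 0.380 and the runs differed in direction.

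**Figure D3:**
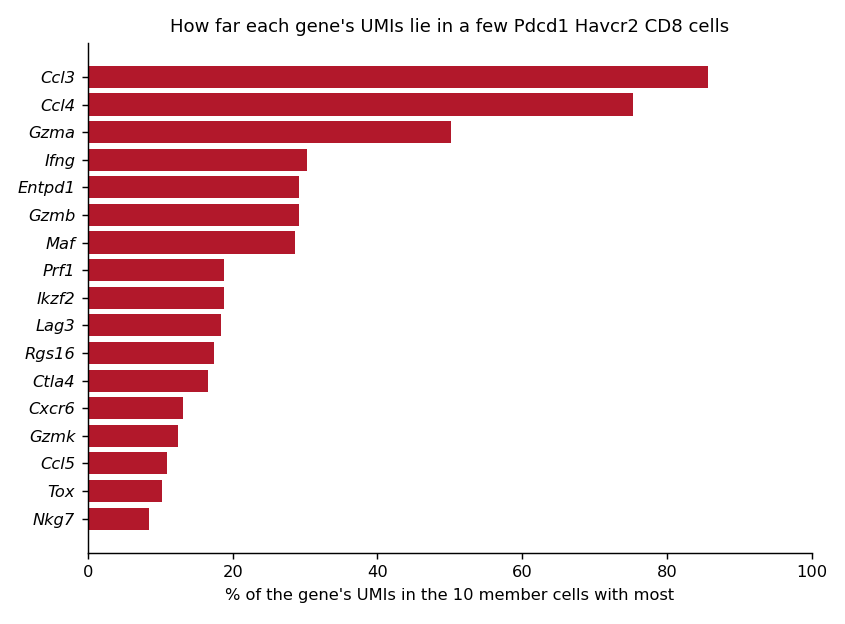
Share of each gene's UMIs (horizontal axis, percent) that lay in the 10 *Pdcd1* *Havcr2* CD8 cells with most of them, out of 368 cells, for 17 genes. *Ccl3*, *Ccl4* and *Gzma* are concentrated at 85.6%, 75.3% and 50.1%, while *Nkg7*, *Tox* and *Ccl5* are spread, at 8.48%, 10.3% and 11.0%.

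Among genes of tissue position, *Cxcr6* and 2 Rgs genes were higher. *Cxcr6*, the receptor that keeps T cells near CXCL16 in tissue, stood at 597 against 170 CPM, a ratio of 3.51 (3.13 to 3.96). Its runs spanned 436 to 865 CPM against 128 to 252 CPM and did not overlap. *Rgs16*, a brake on chemokine receptor signaling, stood at 335 against 70.7 CPM (4.71, 3.97 to 5.67), and *Rgs1*, of the same family, at 1260 against 788 CPM (1.60). *Rgs1* was not called in the strict comparison (1.45) or without cells that held macrophage UMIs (1.56, 5 of 6 runs higher), whereas *Rgs16* was called in both. *Itga4*, an integrin chain, had a ratio of 2.35, whereas its partner *Itgb7* was 1.55-fold lower. *Cxcr4*, the receptor for CXCL12, was called lower, 2.13-fold. The classical residency genes *Itgae*, *Itga1* and *Cd69* had ratios of 1.23, 1.04 and 0.949. In all, 3 of 11 residency genes were called higher and 1 lower, and 2 of 5 chemokine receptors higher and 1 lower.

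The effector cytokine genes *Ifng* and *Tnf* were not called. *Ifng* stood at 213 against 151 CPM (1.42, with 4 of 6 runs higher) and *Tnf* at 75.3 against 76.7 CPM (0.982, 0.786 to 1.23), while *Il2* had 3.70 CPM in both sets. *Il10ra*, a receptor for an inhibitory cytokine, was called higher at a ratio of 3.04 and *Tgfb1* at 1.62, and the IL-18 receptor gene *Il18r1* was called lower, 3.17-fold, which made 2 higher and 1 lower of 12 tested. In the strict comparison *Il10ra* was called, while *Tgfb1* (1.37, 5 of 6 runs higher) and *Il18r1* (3.01-fold lower, 4 of 6 runs lower) were not. Of the costimulatory receptors, *Tnfrsf9*, which encodes 4-1BB and is induced by recent antigen contact, stood at 166 against 58.2 CPM (2.83), and *Cd82* had a ratio of 1.78, 2 of 8 tested. *Tnfrsf9* was not called in the strict comparison, at a ratio of 1.90, while *Tnfrsf4* and *Cd82* were called higher there, 2 of 8 tested.

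Receptors of the natural killer type were lower where they differed. *Klrk1*, which encodes the activating receptor NKG2D, stood at 73.0 against 162 CPM (2.21-fold lower), *Klre1* was 2.16-fold and *Klra7* 13.5-fold lower, 3 of 8 tested, and 0 were called higher. In the T cell receptor complex and its signaling, 3 of 16 were called higher: *Trbc2* (1.59), *Cd3e* (1.52) and *Lcp2* (1.51). Class I antigen presentation gave 1 of 10, *Tap2* (1.78), though *H2-K1*, *H2-D1* and *B2m* were higher in every run at ratios of 1.22, 1.22 and 1.24. *Ifi27l2a*, at 1.60, was the one interferon-induced gene of 16 tested that was called. For both lists this is near the 6.48% of all genes called higher. *Ifi208* and *Mid1*, interferon-induced genes of interest to the study, were below 100 UMIs at 11.6 against 19.0 and 8.32 against 15.3 CPM. Of the genes that the study's text names for these T cells, chosen on these samples and so no independent evidence, 5 of 16 tested were called higher (*Tnfrsf9*, *Tcrg-C4*, *Ccl5*, *Trbc2* and *Cd3e*) and *Ccr7* and *Satb1* lower. Genes of glycolysis (12 tested), immediate early genes (10) and heat shock genes (10) gave 0 calls, with median log2 ratios of 0.14, -0.27 and -0.19. Cell cycle genes gave 4 lower of 11 (*Rrm2*, *Stmn1*, *Cdk1* and *Tubb5*) beside matched cells that could hold *Mki67*, and 0 of 8 in the strict comparison.

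Ranked over all genes tested, the largest ratios fell both inside and outside these lists. Higher by rank were *Cd200r4* (5.50), the T cell receptor gamma segment *Trgv2* (5.04), *Rgs16*, *Lag3*, the Ikaros family gene *Ikzf4* (4.05), the actin regulator *Cyfip1* (3.70), *Tbc1d4*, a regulator of glucose transporter traffic (3.70), *Cxcr6*, the adhesion receptor *Adgrg1* (3.50), *Tox*, the sulfotransferase *Chst12* (3.21), *Sdcbp2* (3.19), *Il10ra*, *Ctla4* and *Batf*. Lower by rank were *Yes1*, *Ccr7*, *Klra7*, *Satb1*, *Plac8* (5.75-fold), *Myb*, the replication factor *Pclaf* (5.29-fold), the factor *Klf3* (5.04-fold), *S1pr1*, *Fam241a* (4.51-fold), *1700025G04Rik* (3.96-fold), *Sidt1* (3.93-fold), the kinase *Txk* (3.50-fold) and *Rrm2*. *Yes1*, a kinase of the Src family, rested on 3 UMIs against 100, a ratio of 0.0396 (0.00608 to 0.0902). *Pclaf* and *Rrm2* turned to 1.25 and 1.68 in the strict comparison. The gamma chain constant genes *Tcrg-C2* and *Tcrg-C4* were both 2.70 times as high, though the Tcrg genes are a family between which reads may be split, while *Trdc*, the delta chain that gamma delta T cells need, had 22.2 against 10.2 CPM with 1 run higher and 3 lower.

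Markers of other cell types were measured in the same sets. A UMI of *C1qa*, *C1qb*, *C1qc*, *Csf1r* or *Adgre1* was found in 51 of the 368 cells, 13.9%, and in 66 matched cells, 17.9%. The summed level of 12 macrophage markers was 2629 against 1829 CPM, and 10 cells held 97.0% of the 1647 C1q UMIs of the *Pdcd1* *Havcr2* CD8 cells. Of 12 dendritic cell markers, the 4 tested (*H2-Ab1*, *H2-Aa*, *H2-Eb1* and *Cd74*) had ratios of 14.2 to 18.2, with 98.0 to 99.6% of their UMIs in 10 cells and different directions among the runs, and the defining genes *Xcr1*, *Clec9a* and *Flt3* had 1, 4 and 3 UMIs. The 8 macrophage markers tested and the 3 of 8 epithelial markers tested gave 0 calls, and the 8 fibroblast and endothelial markers were all below 100 UMIs, at a summed 10.6 against 55.9 CPM. Of 2 B cell markers tested, *Ighm* was lower (1.94-fold) and *Igkc* was not called. The median log2 ratio of the 2 was 0.14, and *Igkc* spanned 16.7 to 124 CPM over the runs of the *Pdcd1* *Havcr2* CD8 cells. *Ikzf4* was the 1 of 2 tested CD4 and regulatory T cell markers called higher, and of the natural killer cell markers tested, *Eomes* and *Gzma*, 0 were called.

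Leaving out every cell with a UMI of the 5 macrophage genes kept 317 of the 368 cells. Of 4215 genes tested, 253 were then called higher (6%) and 67 lower (1.59%), of which 178 and 53 were among the first calls. With the strict comparison added, 233 were higher (5.57%) and 59 lower (1.41%) of 4180. *Lag3*, *Tox*, *Ctla4*, *Cxcr6*, *Rgs16* and *Ccl5* had ratios of 5.11, 3.14, 2.77, 3.56, 5.02 and 2.18, and *Satb1* and *Klf2* 0.149 and 0.321. The class II genes fell to ratios of 0.933 to 1.5, and *Psap*, a lysosomal gene called higher at first with 1.83, went to 0.934.

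The cells nearest to the definition were *Cd8a* cells with *Pdcd1* but no *Havcr2*, or the reverse, also without *Cd4*, *Tcf7* and *Mki67*. There were 4463 with *Pdcd1* alone (median 4187 UMIs), 109 with *Havcr2* alone (4317) and 3813 with neither (4448). Across neither, *Pdcd1* alone and both, *Tox* stood at 107, 256 and 329 CPM, *Lag3* at 32.9, 93.4 and 128, *Cxcr6* at 197, 410 and 597, and *Ccl5* at 6774, 11366 and 13298. Cells with *Pdcd1* alone were thus between the others in all 4 genes, and nearer to the *Pdcd1* *Havcr2* CD8 cells. *Pdcd1* itself stood at 598 CPM in cells with *Pdcd1* alone and at 579 CPM in those with both. *Satb1* had 267, 45.1 and 34.7 CPM, and *Gzmb* 425, 519 and 555 CPM. *Entpd1* had 20.4, 39.7 and 44.4 CPM, *Klf2* 282, 125 and 122 CPM, and *Gzmk* 152, 317 and 338 CPM. For these genes the counting intervals of *Pdcd1* alone and of both overlapped. *Ccl4* was at 166 and 173 CPM in the first 2 sets, at 559 CPM with *Havcr2* alone and at 524 CPM with both, where 10 cells held most of it. The cells with *Havcr2* alone were unlike the rest, with *C1qa* at 2930 CPM, *Ccl5* at 5210 CPM and *Tox* at 131 CPM. *C1qa* was also higher in the cells with both, at 319 CPM, than with *Pdcd1* alone (20.3 CPM) or neither (28.6 CPM). The levels in these sets were not read again without the cells that held macrophage UMIs.

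**Figure D4:**
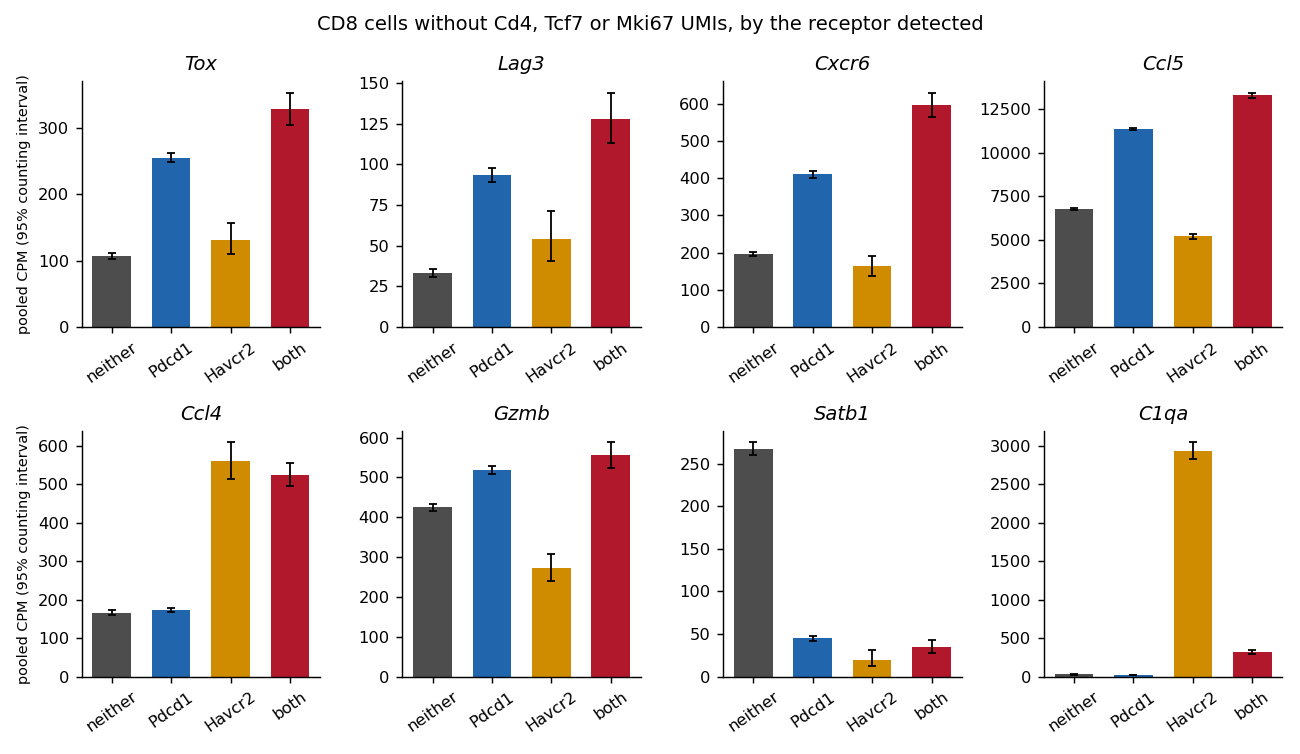
Pooled CPM (vertical axes, bars from 0, with exact 95% Poisson intervals) of 8 genes in *Cd8a* cells without *Cd4*, *Tcf7* or *Mki67* UMIs, split by whether neither receptor, *Pdcd1*, *Havcr2* or both were detected. *Tox*, *Lag3*, *Cxcr6* and *Ccl5* step up from neither to *Pdcd1* alone to both, and *Satb1* is high only in cells with neither. *C1qa* is highest in cells with *Havcr2* alone and next highest in cells with both.

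Just inside the threshold, 89 cells held 1 UMI of each receptor. Their *Tox*, *Lag3*, *Ctla4* and *Cxcr6* levels were 295, 162, 226 and 536 CPM, against 329, 128, 225 and 597 CPM in all 368 cells, and their *Ccl5* level was 11530 CPM. By *Pdcd1* count, the levels of naive and progenitor genes were graded: *Klf2* stood at 248 CPM in the 99 cells with 1 *Pdcd1* UMI, 137 in the 73 with 2 and 67.2 in the 196 with 3 or more, and *Il7r* at 50.9, 48.3 and 25 CPM. *Tox* (311, 370 and 323 CPM) and *Rgs16* (291, 354 and 346) did not follow such a grade. The 3 classes also differed in depth, with medians of 4282, 4431 and 5369.5 UMIs, and in *C1qa*, at 532, 21.5 and 320 CPM.

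Cells in the progenitor position gave a second comparison: 1351 *Cd8a* cells with *Pdcd1* and *Tcf7* UMIs and none of *Cd4*, *Havcr2* or *Mki67*, from which 368 were matched as before. Of 4831 genes tested, 163 were called higher in the *Pdcd1* *Havcr2* CD8 cells (3.37%) and 77 lower (1.59%), at a median log2 ratio of 0.11. Granzyme and chemokine genes were among those called higher. *Gzma* stood at 1458 against 91.2 CPM (15.9, 13.8 to 18.6) and was higher in 6 of 6 runs, *Gzmb* at 555 against 166 CPM (3.33, 2.96 to 3.77), *Ccl3* at 157 against 13.6 CPM (11.2), *Ccl4* at 524 against 65.5 CPM (7.96) and *Ccl5* at 13298 against 5643 CPM (2.36). *Gzmb* was at 307 to 714 CPM in the runs of the former and 126 to 266 CPM in those of the latter, without overlap. As given above, 10 cells held most of the *Ccl3* and *Ccl4* UMIs, and 10 cells held 50.1% of the *Gzma* UMIs. Single runs rested on low levels: *Gzma* in run 5 stood at 13.4 against 3.37 CPM, and *Ccl3* in run 1 at 4.34 against 2.19 CPM. In all, 5 of 13 granule genes were called higher (*Gzma*, *Gzmb*, *Gzmk*, *Prf1* and *Nkg7*) and *Crtam* lower, and 3 of 6 chemokines higher and *Xcl1* lower.

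The 2 *Pdcd1* sets also differed in receptors and factors. *Lag3* was 3.23-fold, *Cd38* 2.74-fold, *Entpd1* 2.74-fold and *Ctla4* 1.84-fold higher, and *Cd160* was 1.53-fold lower. *Tox* (329 against 163 CPM, 2.01), *Maf* (3.93), *Rbpj* (1.78), *Batf* (1.77), *Id2* (1.65) and *Runx3* (1.54) were the 6 of 15 factors called higher, *Cxcr6* was 2.75-fold and *Rgs16* 2.44-fold higher, and *Adgrg1* reached 4.8. Lower were *Ccr7* (10.1-fold), *Il18r1* (4.52-fold), *S1pr1* (4.41-fold), *Klrk1* (3.69-fold), *Id3* (2.66-fold), *Satb1* (2.60-fold), *Slamf6*, a surface marker of progenitor exhausted cells (24.5 against 60.3 CPM, 2.44-fold), and *Klf2* (2.14-fold). By rank the list of higher genes also held *Adrb1* (3.33), the protease gene *Adam8* (3.08), *Sdcbp2* (2.73), and the lysosomal genes *Asah1* (2.73) and *Psap* (2.69), and that of lower genes *Klf3* (4.45-fold), the adhesion gene *Emb* (3.79-fold), *Plac8* (3.07-fold), *Ly6c2* (2.91-fold), *Cpne3* (2.85-fold), *BC005561* (2.72-fold), *Fam241a* (2.70-fold), *Xcl1* (2.54-fold) and *Ms4a4c* (2.53-fold). With *Ly6c2*, 7 of the 12 tested progenitor and naive genes were called lower and 0 higher. Since the 2 sets were chosen to differ in *Tcf7*, this list is not independent of the selection. Costimulatory receptors (8 tested), T cell receptor genes (17) and class I genes (10) gave 0 calls. Macrophage markers summed to 2629 against 626 CPM in this comparison, and without cells that held macrophage UMIs 158 genes were called higher (3.72%) and 57 lower (1.34%) of 4245. *Slamf6* (2.34-fold lower), *Batf* (1.83) and *Fam241a* (2.04-fold lower) then had 5 of 6 runs in their direction and were not called, nor were *Cd160* (1.39-fold lower), *Crtam* (1.53-fold lower) and *Psap* (1.27). *Id3*, *Adrb1*, *Adam8*, *Asah1* and *Cpne3* no longer reached 100 UMIs. Of the progenitor and naive genes, *Ccr7*, *S1pr1*, *Ly6c2*, *Klf2* and *Satb1* were called lower, 5 of 11.

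The same genes were read as shares of cells after thinning to 2000 UMIs, which kept 365 of the 368 *Pdcd1* *Havcr2* CD8 cells, 6708 of 6938 comparison cells and 1346 of 1351 *Pdcd1* *Tcf7* cells. C1q cells without Cd3, of which 484 were kept, served as the background, since macrophages should lack most of these genes. *Cxcr6* was detected in 58.4% of the *Pdcd1* *Havcr2* CD8 cells (53.1 to 63.5), 25.6% of comparison cells, 26.5% of *Pdcd1* *Tcf7* cells and 0 of the 484 C1q cells, and *Tox* in 44.4% (39.2 to 49.6), 16.4%, 26.4% and 0.207%. *Lag3* was detected in 23.8%, 4.64%, 6.54% and 0.413%. Each of these orders matched the order of the pooled levels. Before thinning the shares in the *Pdcd1* *Havcr2* CD8 cells were 82.1% for *Cxcr6*, 75.5% for *Tox* and 44.8% for *Lag3*. *Entpd1* was the exception to the low background: 7.95% of the *Pdcd1* *Havcr2* CD8 cells had it, below the 13.0% of C1q cells.

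**Figure D5:**
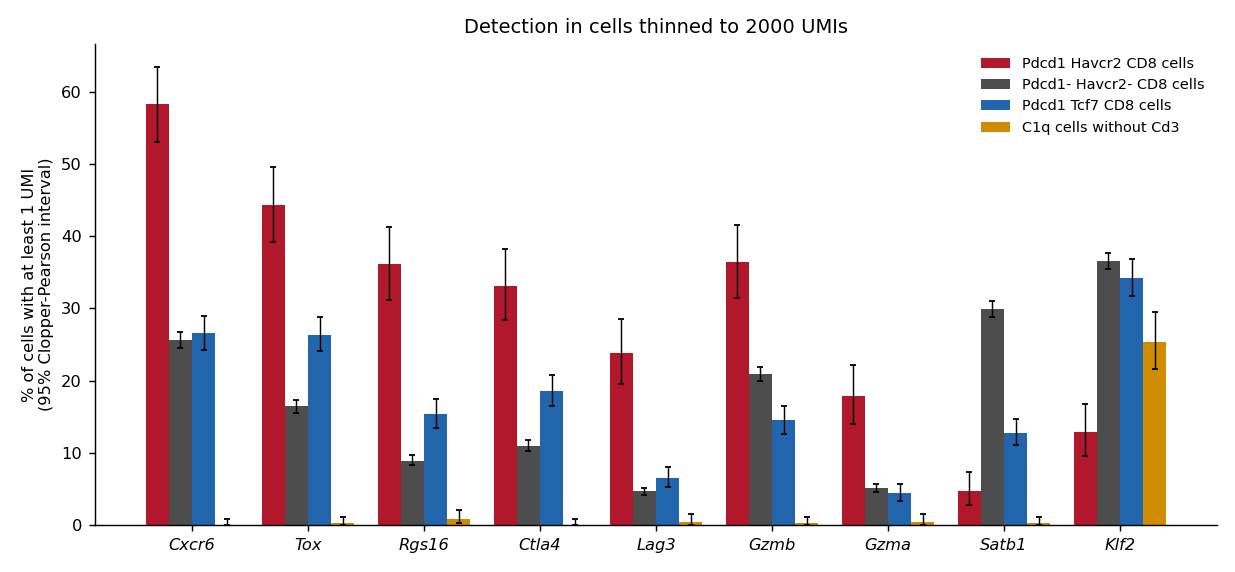
Share of cells with at least 1 UMI of each gene (vertical axis, percent, bars from 0, 95% Clopper-Pearson intervals) after thinning to 2000 UMIs, in *Pdcd1* *Havcr2* CD8 cells, *Cd8a* cells without both receptors, *Pdcd1* *Tcf7* cells and C1q cells without Cd3. *Cxcr6*, *Tox*, *Rgs16*, *Ctla4*, *Lag3*, *Gzmb* and *Gzma* are found most often in the *Pdcd1* *Havcr2* CD8 cells, at 58.4% to 17.8%, and *Satb1* and *Klf2* least often among the 3 CD8 sets, at 4.66% and 12.9%.

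Set against the label of terminally exhausted cells, *Tox*, *Lag3*, *Ctla4*, *Entpd1*, *Batf*, *Cxcr6* and *Ccl5* were called higher and *Ccr7*, *Satb1*, *Klf2* and *S1pr1* lower in both the first and the strict comparison. *Eomes*, *Cd160* and *Gzmb* were tested and not called in either, and a difference in *Tigit*, *Cd244* or *Cd101* was not detectable at this depth. Between cells with *Pdcd1* alone and those with both receptors, *Entpd1* (39.7 and 44.4 CPM) and *Klf2* (125 and 122 CPM) hardly differed. On mm10, the chosen receptor genes lie at chr1:94038305-94052553 (*Pdcd1*, minus strand) and chr11:46454935-46481255 (*Havcr2*, plus strand), and *Ccl5* at chr11:83525778-83530518 (minus strand), by the GENCODE M21 annotation.

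The T cell receptor is assembled from V segments, and the segment with the most UMIs in a cell was read where there was a single one. A leading alpha chain segment was found in 103 of the 368 cells, and 76 of these, 73.8% (64.2 to 82.0), had Trav4-4-dv10. Among the matched cells without both receptors it led in 39 of 76, 51.3% (39.6 to 63.0), and among the matched *Pdcd1* *Tcf7* cells in 66 of 95, 69.5% (59.2 to 78.5). The segment followed the barcode run: it led in 53 of 54 such *Pdcd1* *Havcr2* CD8 cells of run 3, 21 of 30 of run 1 and 2 of 3 of run 6, and was not the leading segment of any in runs 2, 4 and 5, which had 2, 9 and 5 such cells. In run 3 it also led in 30 of 34 matched cells and 38 of 40 *Pdcd1* *Tcf7* cells. Trav segments occur as closely similar copies between which reads can be split, so the assignment is uncertain. A leading beta chain segment was found in 32 of the 368 cells, of which the most frequent, Trbv29, had 7.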

How the data were processed

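For the CD4/CD8-selected cells the authors deposited raw UMI counts, with genes in rows and cells in columns of 1 matrix. The submitters' processing notes name Cell Ranger 3.0.2 and mm10; the annotation and cell filters were not given in the sources used here. The matrix of CD11c-selected cells was not used, and columns of per-sample values left out numbered 0. Cells with at least 200 detected genes and under 10% mitochondrial UMIs were kept. No doublet caller was run, so cells with UMIs of 2 types stayed in. Counts were summed over cells and scaled to 1000000 UMIs of those cells (CPM). Comparison cells were matched 1 to 1 within a barcode run by UMI total without replacement (median difference 3 UMIs, largest 702). Genes of the definition were left out of the calls. As the matrix is 1 sample, no significance test was run. Intervals are exact 95% Poisson or Clopper-Pearson intervals, and for ratios conditional ones. For thinning, 2000 UMIs were drawn from each cell (seed 1). The calling rule was checked on simulated counts. Named genes are those of the lists, those in the study's account of these T cells included, and the 15 largest ratios in each direction, and some genes of these lists are counted but not reported here by name. The definition and the gene lists were chosen with earlier results of these data known. Aldoa was not analysed here, since 2 entries share its symbol, and Cd244a was matched as *Cd244*. Symbols matched GENCODE M21 (GRCm38) for 30431 of 31053 genes. Python 3.11.15, numpy 2.4.6, scipy 1.17.1, pandas 2.3.3 and matplotlib 3.10.9 were used.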

Additional observations from a re-analysis of the deposited data

How the results depend on the processing

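No paired analysis was possible because the barcodes carry no replicate number. The alternatives for the *Pdcd1* *Tcf7* cells, and the strict comparison combined with the exclusion of macrophage UMIs (233 genes higher, 59 lower), were chosen after seeing the data. Over 15 alternatives, 1015 of 1020 ratios of 68 called genes other than *Ccl5* kept their direction. The exceptions were *Pclaf* (1.25), *Rrm2* (1.68), *Stmn1* (1.01) and *Tubb5* (1.05) in the strict comparison and *Psap* (0.934) without macrophage UMIs. With a minimum of 500 genes no value moved, so that alternative could not reverse a direction. Called genes had the same direction in every run by the calling rule, so leaving out 1 run could hardly reverse one. The ratios of these alternatives are counted in the 1020 but do not test the direction. Leaving out 1 barcode run gave a *Ccl5* ratio of 2.08 to 2.38, 290 to 335 genes higher and 82 to 100 lower than in the comparison cells, and 281 to 330 cells.

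The ratio of *Ccl5* was 2.46 without matching, 2.14 with thinning, 1.97 in the strict comparison, 1.88 with a mitochondrial limit of 5%, 3.68 with at least 2 UMIs of each receptor and 1.96 as a mean over cells. Without matching, 519 genes were called higher and 493 lower (272 and 138 against the *Pdcd1* *Tcf7* cells). With thinning 197 were lower, and with the 5% limit 202 were higher. At a fold of 2, 73 were higher and 39 lower (43 and 32). With a minimum of 1 UMI, 475 and 181 were called (299 and 150), and with 500 UMIs 77 and 26 (40 and 24). Requiring 2 UMIs of each receptor left 52 cells and 164 genes higher, with no run reaching the 20 cells that the condition on direction needs. Applying the definition after thinning to 2000 UMIs left 114 cells.

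Depth limits genes below about 100 UMIs over both sets, which took in 9 of the 18 inhibitory receptors listed, and 83.2% of the cells rest on 1 *Havcr2* UMI. No cell was assigned to a mouse, and counting intervals leave out the spread between animals.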
